A study of Homo sapiens with 7 samples.

Results

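SOX2, NKX2-1, SHH and CDX1 are genes of gut and foregut fates other than pancreas, and the results below describe where HNF6, GATA6 and NKX6.1 occupied chromatin around them. A locus was taken as the gene and 100 kb on either side, on the genome build hg19, and a region belonged to it when its midpoint lay inside. Of 86081 regions in 4 peak lists, 42 were found at the 4 loci: 14 at NKX2-1, 12 at SHH, 11 at SOX2 and 5 at CDX1. By factor, 33 were HNF6 regions of day 10, 6 were NKX6.1 regions, 3 were GATA6 regions and 0 were HNF6 regions of day 5.

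The lists came from chromatin immunoprecipitation and sequencing of CyT49, an established human embryonic stem cell line, differentiated in culture toward pancreas. HNF6, also named ONECUT1, was profiled at the gut tube endoderm stage on day 5 and in pancreatic progenitors on day 10. GATA6 was profiled in progenitors on day 10, and NKX6.1 in progenitors on day 13. Each of these 4 groups had 1 library and 1 list (250, 64919, 6285 and 14627 regions in the order named), and 3 inputs of days 5, 10 and 13 were not analysed here. No genetic change or drug distinguished the groups, per the labels, so they differ in factor, day or both, and always in library. HNF6 on day 5 and day 10 share the factor, and HNF6 and GATA6 on day 10 share the day, so there the day or the factor cannot be told apart from the library. NKX6.1 differs from the other lists in factor, day and library together. The labels give the antibody of each library as its own factor, but the protocol text names only an NKX6.1 antibody for all of them. Peak lists hold no expression values, so the labelled stages could not be checked against marker genes.

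SOX2 encodes a transcription factor of pluripotent cells that later marks the anterior foregut, from which oesophagus and stomach form. NKX2-1 encodes a homeodomain factor of lung and thyroid. SHH encodes a secreted ligand of the hedgehog pathway, which is made by much of the gut endoderm and is kept out of the early pancreatic bud. CDX1 encodes a homeodomain factor of the intestine. HNF6 is a cut-homeodomain factor of liver and pancreas, GATA6 is a zinc finger factor of early endoderm and pancreas, and NKX6.1, also of the homeodomain class, marks pancreatic progenitors and beta cells. A listed region shows where an antibody enriched chromatin, and does not by itself show that a gene is regulated from there.

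The nearest region to any of the 4 gene starts was an HNF6 region of day 10 just before SOX2. It lay on chromosome 3 at 181429267 to 181429605, and spanned from 445 to 107 bases upstream of the start of SOX2. For that reason the 300 bases around this start are shown as RefSeq gives them for GRCh38.p14, 250 before the start and 50 after it. They lie on chromosome 3 at 181711675 to 181711974 of that build, on the plus strand. Capitals mark the 144 bases that the HNF6 region covered, counted back from the gene start of each build, and the letters of hg19 itself were not compared.

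SOX2: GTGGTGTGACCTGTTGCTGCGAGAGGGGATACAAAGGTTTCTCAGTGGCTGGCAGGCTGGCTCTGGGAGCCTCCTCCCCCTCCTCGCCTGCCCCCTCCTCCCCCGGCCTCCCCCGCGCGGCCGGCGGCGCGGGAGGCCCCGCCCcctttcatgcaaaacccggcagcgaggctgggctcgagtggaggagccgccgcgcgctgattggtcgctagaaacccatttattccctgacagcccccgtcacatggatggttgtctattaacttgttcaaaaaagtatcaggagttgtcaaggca

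The SOX2 sequence was 63.3% G and C and held 20 CpG pairs. Short core motifs were searched on both strands: ATCAAT and ATCGAT for HNF6, AGATAA for GATA6 and TTAATT for NKX6.1. None of these letters occurred in the SOX2 sequence. It covers only 144 of the 339 bases of the HNF6 region, and the rest of that region was not searched. Over 34796 RefSeq promoters of the same length, ATCAAT was found in 6.26%, ATCGAT in 0.762%, AGATAA in 10.4% and TTAATT in 10.5%. SHH was the other gene with an HNF6 region shortly upstream of its start, from 1183 to 864 bases before it. Its promoter in GRCh38.p14 lies on the minus strand of chromosome 7 at 155812414 to 155812713. The sequence reaches back only 250 bases from the start and holds none of that HNF6 region. Capitals mark a match to the GATA6 motif on the opposite strand.

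SHH: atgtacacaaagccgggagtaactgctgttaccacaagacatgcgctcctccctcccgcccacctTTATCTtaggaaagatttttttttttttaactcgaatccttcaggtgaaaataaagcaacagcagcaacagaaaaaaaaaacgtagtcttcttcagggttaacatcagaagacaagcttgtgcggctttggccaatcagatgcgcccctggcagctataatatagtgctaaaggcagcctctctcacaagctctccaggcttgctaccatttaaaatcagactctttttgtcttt

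The match spans 185 to 180 bases before the RefSeq start. The nearest listed GATA6 region lay 60.9 kb from the hg19 start of SHH. The SHH model is 12288 bp long in the coordinates used here and 12484 bp in RefSeq, so its starts may not be the same base. The SOX2 model is 2512 bp long in both. NKX2-1 had 2 promoter entries, of which 1 held none of these motifs and the other held a GATA6 motif and an NKX6.1 motif. A match is a string of letters and not a bound site. CDX1 had no entry in the promoter table.

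HNF6 on day 10 was found at all 4 loci. To set the counts beside the rest of the genome, it was divided end to end into windows of the length of each locus (203 kb for SOX2, 204 kb for NKX2-1, 212 kb for SHH and 218 kb for CDX1), which gave 14000 to 15057 windows. At least 1 HNF6 region of day 10 was present in 86.9, 86.7, 87.4 and 87.4% of them, in the same order, so the presence of HNF6 at 4 of 4 loci is near the background. The loci differed in number. NKX2-1 held 12 HNF6 regions, and 95.9% of its windows held fewer. SOX2 held 9 (88.5% of windows held fewer), SHH held 8 (82.0%) and CDX1 held 4 (43.6%), where the median window held 4. Windows include gaps in the assembly and gene-poor stretches, and loci of other genes were not used for comparison, because no hg19 gene annotation was used here.

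**Figure D1:**
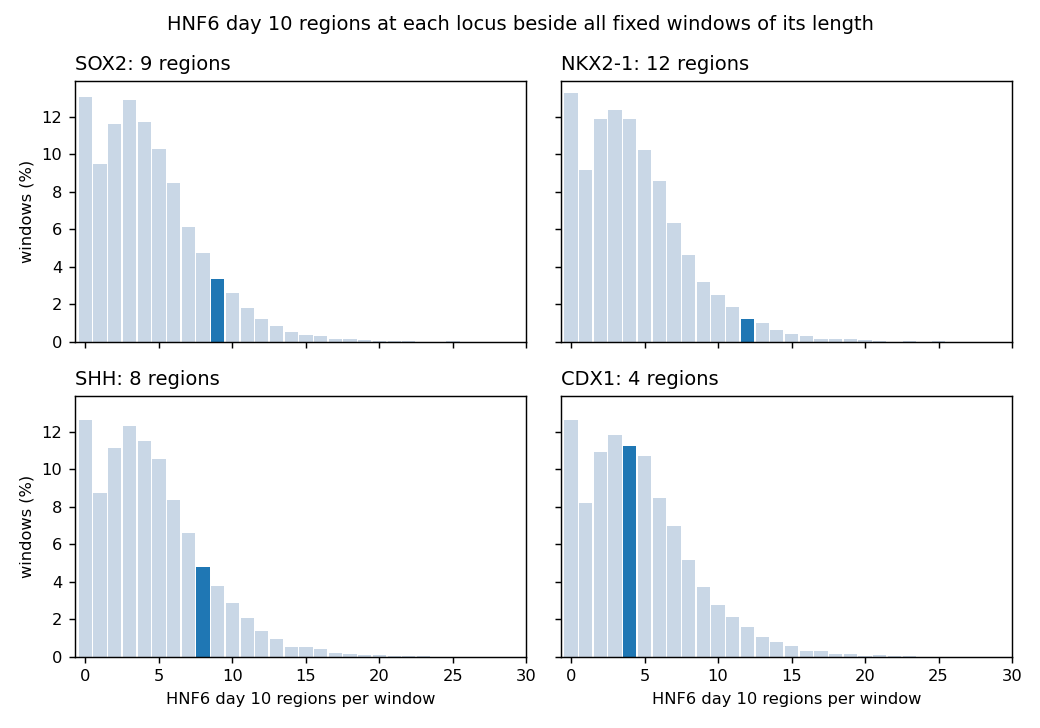
HNF6 regions of day 10 per window (x axis, number of regions) against the percent of all fixed windows of the same length as the locus (y axis), 1 panel per gene; the dark bar is the number found at the gene. NKX2-1 with 12, SOX2 with 9 and SHH with 8 regions sit on the right slope, and CDX1 with 4 sits near the middle.

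The authors' peak score was used only to rank a region within its own list, as the percent of that list with the same or a lower score. The 33 HNF6 regions had a median percentile of 63.0 (quartiles 37.3 and 88.1). Of these, 19 lay above the median score of the HNF6 list and 7 in its top decile, which is 21.2% against 10.0% of the whole list. All 4 loci had at least 1 HNF6 region in the top decile: 3 of 8 at SHH, 2 of 4 at CDX1, 1 of 9 at SOX2 and 1 of 12 at NKX2-1. At SOX2 and NKX2-1 this is near the 10.0% of the whole list. The share of windows with such a region was not computed, so the count of loci has no background beside it. Strong and weak regions stood side by side, from percentile 5.65 to percentile 98.9. With 33 regions from 1 library, these shares describe the loci and were not tested.

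**Figure D2:**
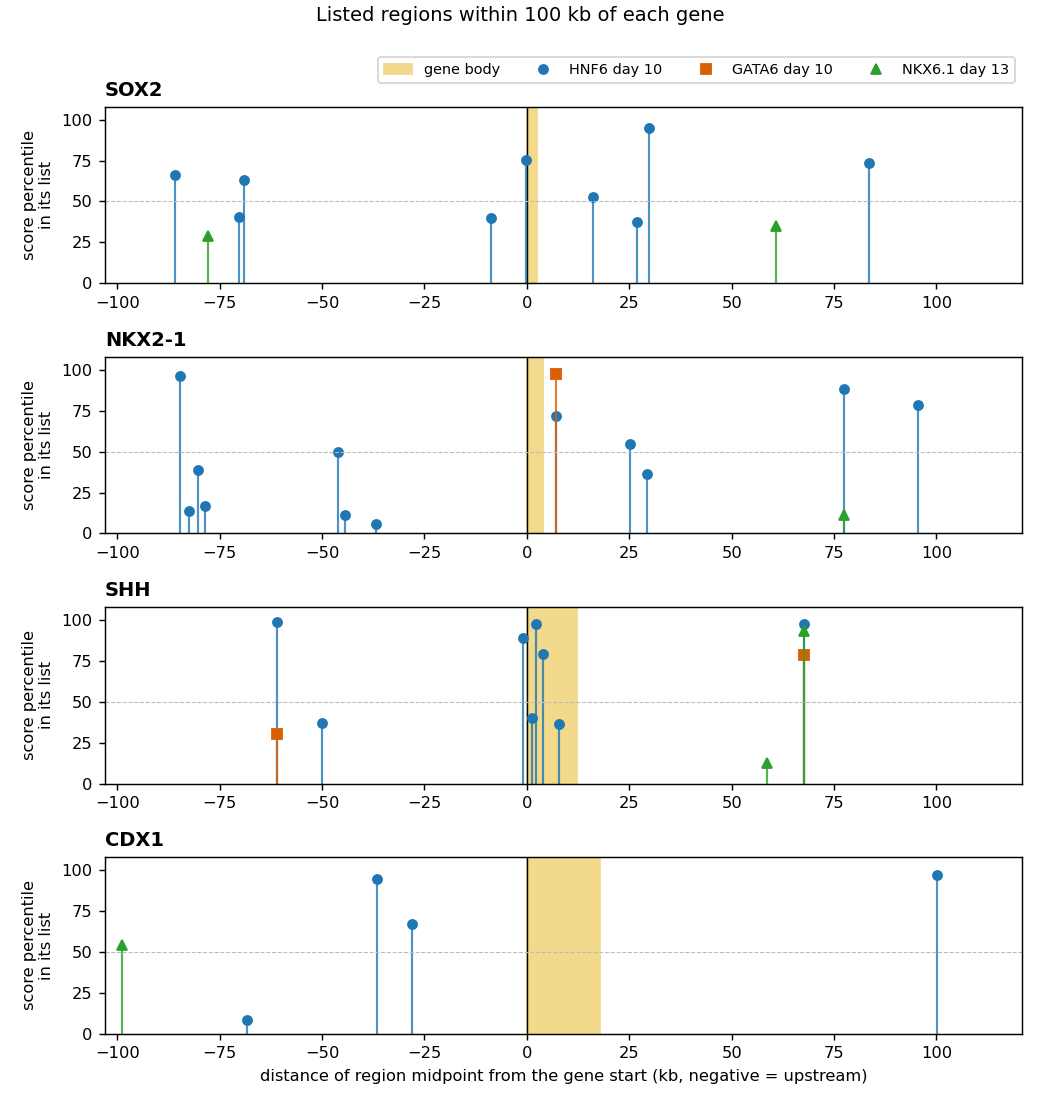
Distance of each region's midpoint from the gene start (x axis, kb, negative values upstream) against its score percentile in its own list (y axis), 1 panel per gene; each stem is 1 region, the shaded block is the gene and the dashed line is the median of a list. At SHH 5 HNF6 regions crowd the gene and its start. At CDX1 the gene holds no region, and the nearest lies 27.9 kb upstream of its start. Listed GATA6 regions appear at NKX2-1 and SHH alone.

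HNF6 surrounded SOX2 on both sides, whereas GATA6 was not listed and NKX6.1 was weak. The 9 HNF6 regions had scores of 120, 66, 109, 64 and 171 upstream, in order toward the gene, and 86, 59, 657 and 156 downstream, in order away from it. In the same order their midpoints lay 86.0, 70.3, 69.0, 8.72 and 0.276 kb upstream of the start and 16.1, 27.0, 29.8 and 83.6 kb downstream of it. Only the region with score 657 stood in the top decile, and the lowest of the 9 was at percentile 37.3. The strong region lay 29.8 kb downstream of the start, on chromosome 3 at 181459375 to 181459689 (percentile 94.95). The region before the start, part of whose sequence is shown above, had score 171 and percentile 75.3. Its midpoint was 276 bases from the start, and 1.23% of window midpoints had an HNF6 region as near. A gene start is not a random point, so this share describes how close the region was and tests nothing. In RefSeq (GRCh38.p14), the only other genes within 100 kb of SOX2 were SOX2-OT, a long noncoding RNA gene that overlaps it, and the pseudogene RN7SL703P.

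NKX6.1 had 2 regions at SOX2, where 55% of windows of that length held at least 1. They lay 77.9 kb upstream (chromosome 3, 181351729 to 181351868, score 36) and 60.8 kb downstream (181490437 to 181490513, score 41). Both were weak, at percentiles 29.0 and 35.2 of the NKX6.1 list. Neither overlapped an HNF6 region of day 10, and 14.3% of the whole NKX6.1 list did. GATA6 had 0 listed regions at SOX2, against 30.3% of windows with at least 1. Among the 507 windows that held exactly 9 HNF6 regions, 36.7% likewise had no listed GATA6 region. The nearest listed GATA6 region was 232 kb from the start (score 338, percentile 83.9), and it overlapped an NKX6.1 region of score 17.

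An empty locus in the GATA6 list has to be read against the list's gaps. Its peak numbers follow genome position and run to 19404, but 13119 numbers are not listed. All 6285 listed GATA6 regions overlap an HNF6 region of day 10, so the list holds no GATA6 region away from HNF6. An empty locus therefore does not show that GATA6 was absent there, only that no GATA6 region on an HNF6 region was listed. Around SOX2, 8 numbers are missing between the listed neighbours, over a stretch of 940 kb. Around CDX1, 3 are missing over 510 kb, and around NKX2-1 3 are missing over 1128 kb. Whether any of these peaks lay within the loci is unknown. Around SHH 0 numbers are missing, so its 2 listed regions are all the numbered GATA6 peaks of that stretch of 273 kb.

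With all regions counted, NKX2-1 had the most HNF6 regions of the 4 loci and the strongest GATA6 region. Of its 12 HNF6 regions, 7 were upstream, 5 downstream and 0 inside the gene. Those upstream were mostly weak, with scores of 25, 32, 78, 39, 62, 35 and 756 in order away from the start. Only the last, on chromosome 14 at 37073880 to 37074420 and 84.7 kb from the start, stood high (percentile 95.9). Beside it lay 3 weak regions, 82.4, 80.3 and 78.7 kb upstream of the start. Downstream, scores were 148, 88, 58, 335 and 195 in order away from the start, and 4 of the 5 were above the median of the list. Over all 12 the median percentile was 44.1, below that of SHH (83.8), CDX1 (80.8) and SOX2 (63.0). The locus thus had many HNF6 regions, and their strength was near that of the whole list. Of the 12, 5 lay above the median of the list and 1 in its top decile, which holds 10.0% of the list.

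GATA6 was found at NKX2-1 in 1 region, and 30.2% of windows of that length held at least 1. It lay on chromosome 14 at 36982066 to 36982538, 7.13 kb downstream of the start and 3.30 kb beyond the end of the gene. Its score of 1124 placed it at percentile 97.6, rank 153 of the 6285 listed GATA6 regions. HNF6 was centred 2 bases away with a narrower and weaker region (36982188 to 36982412, score 148, percentile 71.7). The GATA6 region was 473 bp wide and the HNF6 region 225 bp, and it lay wholly within the GATA6 region. Of the 3 sites at the 4 loci with both factors, this was the only one where GATA6 ranked higher in its list than HNF6 did in its own. The lists differ in length and in which peaks are listed, so these ranks do not compare binding strength. In RefSeq the long noncoding RNA genes SFTA3 and NKX2-1-AS1 and the homeodomain gene NKX2-8 are among the neighbours of NKX2-1, and the region was not assigned to any of them.

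NKX6.1 was found at NKX2-1 in 1 region, where 55.3% of windows held at least 1. It lay 77.4 kb downstream of the start, on chromosome 14 at 36912018 to 36912099, with a low score of 23 (percentile 11.1). An HNF6 region of score 335 (36911635 to 36912231, percentile 88.1) covered it entirely. An HNF6 region overlapped by NKX6.1 was present in 12.4% of windows of this length. HNF6, GATA6 and NKX6.1 were thus all listed at NKX2-1, as in 21.6% of windows. No HNF6 region there held both other factors, and over the whole day 10 list 1.15% of HNF6 regions did.

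SHH held the only region shared by all 3 factors, and the only HNF6 regions inside a gene body among the 4 loci. Of its 8 HNF6 regions, 4 lay inside the gene, 3 upstream and 1 downstream. From 7.93 kb inside the gene back toward its start, the regions had scores of 58, 199, 969 and 63, and the region before the start had score 350. Farther upstream, a weak region lay on chromosome 7 at 155654829 to 155655106 (score 59, percentile 37.3). The score of 969 belonged to a region of 870 bp on chromosome 7 at 155602197 to 155603066, 2.34 kb downstream of the start. It was at percentile 97.3 by score and wider than nearly all HNF6 regions (percentile 99.6 by width). The other 3 loci had 0 HNF6 regions inside the gene, but SOX2 and NKX2-1 are shorter genes (2.51 and 3.83 kb, against 12.3 kb for SHH and 17.8 kb for CDX1).

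The 5 HNF6 regions at the SHH gene and start fell within 9.26 kb, on chromosome 7 from 155596893 to 155606150. Any 5 consecutive HNF6 regions spanned a median of 136 kb over the genome. A span as short as that at SHH was found for 155 of 64798 runs of 5, or 0.239%, and 0.907% of all HNF6 regions of day 10 were part of such a run. The group at SHH was noticed in these data, so its share is a description. None of the 5 regions overlapped a region of GATA6 or NKX6.1. Most HNF6 regions did not either: over the whole day 10 list 9.66% overlapped GATA6 and 3.20% overlapped NKX6.1.

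Both GATA6 regions of SHH lay on strong HNF6 regions far from the gene. At least 1 GATA6 region was listed in 31.3% of windows of this length. An HNF6 region with score 1502, at 155665662 to 155666058 and 60.9 kb upstream of the start, was the strongest of all 33 HNF6 regions (percentile 98.9). GATA6 was centred on the same base with a weak region (155665771 to 155665949, score 61, percentile 30.1). The other site lay 67.7 kb downstream of the start, at 155537004 to 155537442 for HNF6 (score 978, percentile 97.4). GATA6 was found there at 155537104 to 155537369 (score 265, percentile 78.7). Every GATA6 region of the list overlaps an HNF6 region, so the meeting of these factors does not set SHH apart. At least 2 listed GATA6 regions were present in 9.08% of windows of this length.

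NKX6.1 occupied the same downstream site, which was the only one of the 33 HNF6 regions to hold all 3 factors. Its region at 155537118 to 155537278 had score 206 and stood at percentile 93.0, the highest of the 6 NKX6.1 regions at the 4 loci. The midpoints of GATA6 and NKX6.1 lay 13.5 and 25 bases from that of HNF6, and both regions lay wholly within the HNF6 region. A site of this kind was present in 4.89% of windows of this length, and all 3 factors, at any distance from each other, in 22.4%. Another NKX6.1 region, at 155546294 to 155546369 and 58.6 kb downstream of the start, was weak (score 24, percentile 12.5) and overlapped no other list. NKX6.1 was present in 56.5% of windows of this length. RBM33 is the only neighbour of SHH within 100 kb in RefSeq.

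**Figure D3:**
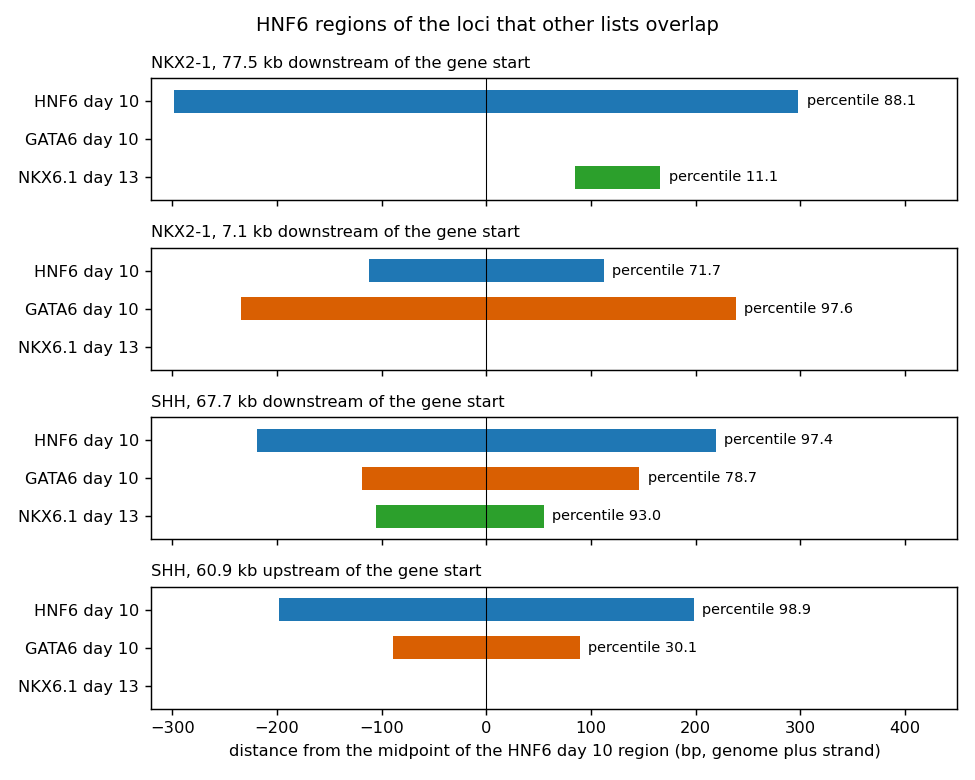
Extent of the regions at the 4 HNF6 sites that another list overlapped, as distance from the midpoint of the HNF6 region (x axis, bp, genome plus strand), with 1 row per list and the score percentile printed beside each bar. At the SHH site 67.7 kb downstream all 3 factors are nested, and at the NKX2-1 site 7.1 kb downstream GATA6 is wider than HNF6.

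The CDX1 gene itself held no listed region, and the nearest of any list lay 27.9 kb upstream of its start. The locus held 4 HNF6 regions, 3 upstream (scores 30, 627 and 126 in order toward the gene) and 1 downstream (score 969). The downstream region, on chromosome 5 at 149646255 to 149646736, was at percentile 97.3, and the strongest upstream one, at 149509587 to 149509967, at percentile 94.6. They lay 100.2 and 36.6 kb from the start of CDX1. The nearest HNF6 region, with score 126 at 149518242 to 149518560, was 27.9 kb from the start. That was the farthest of the 4 genes, after 276 bases at SOX2, 1.02 kb at SHH and 7.13 kb at NKX2-1. An HNF6 region as near as at CDX1 was found for 59.0% of window midpoints.

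The whole CDX1 gene lay in a stretch of 128 kb without an HNF6 region of day 10, from 149518561 to 149646254. The median stretch between HNF6 regions was 23.1 kb, and 7.05% of stretches were as long as that at CDX1. These long stretches add up to 37.4% of all bases between HNF6 regions, so a stretch of this size is common by position. For comparison, the stretch holding the start was 16.0 kb at SOX2, 43.7 kb at NKX2-1 and 1.96 kb at SHH. CDX1 has CSF1R, PDGFRB, SLC6A7 and CAMK2A as neighbours within 100 kb in RefSeq, and the 4 HNF6 regions were not assigned to any of these genes.

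GATA6 had 0 listed regions at CDX1, against 31.9% of windows with at least 1, and 70.4% of the 1577 windows with exactly 4 HNF6 regions had none either. The nearest was 191 kb from the start (score 106, percentile 50.7). NKX6.1 had 1 region, where 57.5% of windows held at least 1. It lay 98.8 kb upstream, just inside the limit, on chromosome 5 at 149447510 to 149447593 (score 56, percentile 54.1), and overlapped no other list. HNF6 and NKX6.1 were thus both listed at CDX1 without touching. Over the whole NKX6.1 list, 14.3% of regions overlapped HNF6 of day 10.

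HNF6 on day 5 was not listed at any of the 4 loci. At least 1 day 5 region was present in 1.57, 1.6, 1.64 and 1.69% of windows of the lengths used for SOX2, NKX2-1, SHH and CDX1, so 4 empty loci are what a list of 250 regions mostly gives. The nearest day 5 region was 0.721 Mb from CDX1, 0.798 Mb from SHH, 2.91 Mb from NKX2-1 and 4.35 Mb from SOX2. Of the 33 HNF6 regions on day 10, 0 coincided with HNF6 on day 5, against 0.347% of the whole day 10 list. Depth is unknown from the lists, and a difference between the days at these genes was not detectable with a day 5 list of this size.

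Over the 4 loci, the shares of overlap between HNF6 and NKX6.1 were higher than in the whole lists. They rest on few regions, with wide intervals that include the value of the whole list. GATA6 overlapped 3 of 33 HNF6 regions, or 9.09% (Wilson 95% interval 3.14 to 23.6), against 9.66% (9.43 to 9.89) of all HNF6 regions of day 10. Because no GATA6 region was listed away from HNF6, this share only reflects how many regions each list held. It cannot show whether GATA6 and HNF6 met more or less often at these loci. NKX6.1 overlapped 2 of 33, or 6.06% (1.68 to 19.6), against 3.20% (3.07 to 3.34). Of the 6 NKX6.1 regions, 2 (33.3%, 9.68 to 70.0) overlapped HNF6, against 14.3% (13.8 to 14.9) of the NKX6.1 list. These are the same 2 sites counted from the other list, so the 2 shares are not separate results. At 1 of these sites, at NKX2-1, the NKX6.1 region was weak (score 23, percentile 11.1). The intervals cover counting error only. The 6 NKX6.1 regions had a median percentile of 32.1. Of these, 2 were above the median of the list and 1 was in its top decile, which holds 10.1% of the list.

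The distance limit decides which factors appear at a locus. Just outside it lay HNF6 regions 102 kb from SOX2 on both sides (scores 166 and 226), 104 kb from SHH (score 106) and 109 kb from NKX2-1 (score 55). A GATA6 region among the strongest of its list (score 2690, percentile 99.7) lay 142 kb upstream of SHH, and another of score 25 lay 119 kb beyond its end. Within 500 kb, SOX2 had 42 HNF6 regions (93.9% of windows of that length held fewer), NKX2-1 28 (71.4%), SHH 27 (68.5%) and CDX1 13 (22.1%). With all regions counted, NKX2-1 thus led within 100 kb, SOX2 led within 500 kb, and CDX1 was last at both limits. The order within 100 kb changed with the strength of the regions. Above the median score of the HNF6 list, SOX2 held 6, NKX2-1 and SHH 5 each and CDX1 3. Among the 6285 strongest HNF6 regions, SHH held 3, CDX1 2, and SOX2 and NKX2-1 1 each. For NKX6.1 within 500 kb, SOX2 had 12 regions (95.6% of windows held fewer), NKX2-1 8 (79.7%), and SHH and CDX1 4 each (38.6%). For GATA6, SOX2 had 4 (80.2%), SHH 4 (80.3%), NKX2-1 3 (65.3%) and CDX1 2 (46.0%).

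**Figure D4:**
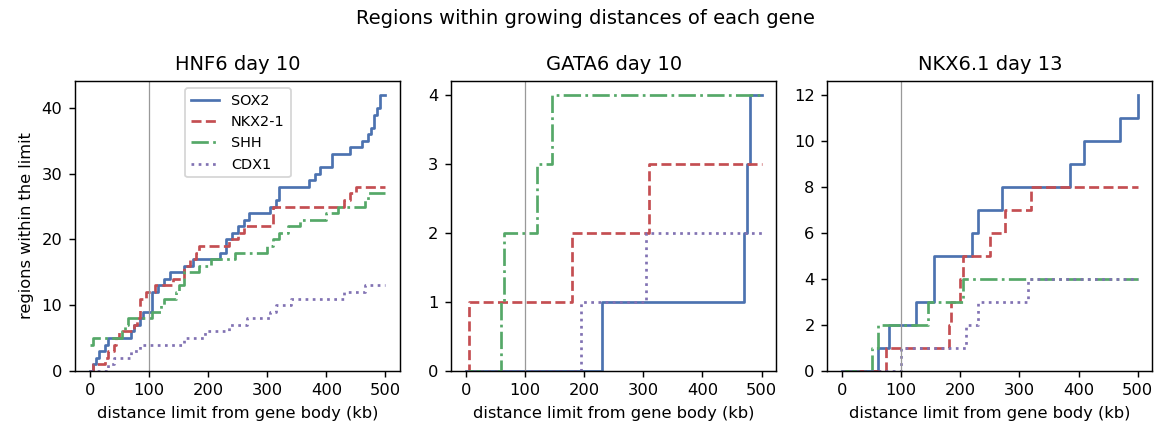
Number of regions (y axis) whose midpoint lies within a growing distance of the gene (x axis, kb), 1 panel per list and 1 line per gene, with the limit of 100 kb as a vertical line. SOX2 rises to 42 HNF6 and 12 NKX6.1 regions at 500 kb, CDX1 stays lowest for HNF6 with 13, and GATA6 reaches SOX2 and CDX1 only beyond 100 kb.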

How the data were processed

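Per the submitters' processing notes, the build was hg19 and the tools included MACS2 (version 2.1.1.20160309) and Bowtie2 (version 2.3.4.1), with no settings. For each library the authors deposited a single headerless list of positions, peak names and scores, and no source used here states the scale of the score. Rows that shared both coordinates counted as 1 region, which took their highest score. The 4 genes and the distance limit were chosen with earlier results of these data known, as were the motifs and comparisons. Midpoints decided membership, and overlap was counted from 1 bp in Python 3.11.15 (numpy 2.4.6, pandas 2.3.3), with the same counts from bedtools 2.31.1 for all pairs of lists. Fixed windows ran from position 1 of each chromosome to the farthest region of any list. By rule, every region is reported where a list held at most 10 at a locus, otherwise the 5 highest scores and the nearest to the start; the other regions of NKX2-1 are given by score. Code was tested on simulated data. With 1 library per group there was no test and no p-value. Counts at other gut fate and hedgehog pathway genes were planned and not run, because no hg19 gene annotation was used here. The strand of CDX1 was taken from general knowledge. Alternatives were other distance limits, distance from the gene start, any base in place of the midpoint, stricter lists, unmerged rows and other overlap rules.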

Additional observations from a re-analysis of the deposited data

How the results depend on the processing

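No paired analysis was possible because each group had 1 library. HNF6 of day 5 had 0 regions at the loci under every alternative tried. The distance limit moved most counts. With limits of 50, 250 and 500 kb the loci together held 18, 68 and 110 HNF6 regions of day 10, 1, 8 and 13 GATA6 regions, and 1, 20 and 28 NKX6.1 regions, in place of 33, 3 and 6. GATA6 was then found at 1, 4 and 4 loci in place of 2, and NKX6.1 at 1 locus within 50 kb in place of 4. Among regions above the median score of their list, 19 HNF6 regions remained, NKX6.1 fell to 2 regions at 2 loci, and 1 HNF6 region overlapped NKX6.1 in place of 2. With the HNF6 and NKX6.1 lists limited to their 6285 strongest regions, 7 HNF6 regions and 1 NKX6.1 region, at 1 locus, were left. Under both of these settings NKX2-1 no longer had the most HNF6 regions. Taking the lowest score of merged rows moved the median HNF6 percentile from 63.0 to 64.0. Distance from the gene start, any base of the region and unmerged rows kept all 16 counts per locus and list within 1.5 times. Chosen after seeing the data, windows that held a region of any list had HNF6 of day 10 in 98.2 to 98.4%, GATA6 in 34.2 to 35.9%, NKX6.1 in 62.1 to 64.8% and HNF6 of day 5 in 1.77 to 1.90%. Overlap of 50% of the shorter region and midpoints within 200 bp left all overlap counts at the loci as they were. The lists do not give read depth, so a missing region may be one too weak to be listed.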
